A study of Equus caballus with 13 samples.

Results

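The IGF axis in these chondrocytes is described here through 10 genes taken by name: the ligand IGF1, the receptors IGF1R and IGF2R, the receptor substrates IRS1 and IRS2, and the binding proteins IGFBP2, IGFBP3, IGFBP4, IGFBP5 and IGFBP6. Of the 10 genes, 7 were listed in at least 1 of the 2 tables of RNA kinetics that the authors deposited. IGF1R, IRS1, IRS2, IGFBP2, IGFBP5 and IGFBP6 were listed in both tables, and IGFBP4 was listed only in the table for sex. IGF1, IGF2R and IGFBP3 were listed in neither, so nothing is reported on them. There were 11056 genes in the age table and 11249 in that for sex, of which 10974 were shared.

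The cells were wild-type horse chondrocytes released from cartilage, cultured for 2 days and labelled over 4 h with 4-thiouridine (4sU). This nucleoside is built into RNA made while it is present, so that new and old RNA can be told apart in 1 library. The groups were old female (5 samples), young female (5 samples) and young male (3 samples), and all of them received 4sU; ages in years were not stated, nor whether each sample came from a different horse. The age table set old against young female cells and the sex table young male against young female cells, with the 5 young female samples assigned to both. Each table gave, for every gene and group, a synthesis rate in units that were not stated and a half-life, read here as hours. These are the authors' values for a whole group: they come with no value per sample, no SD and no read count, so depth is unknown and no difference below has a replicate error or a test. The 12 batch labels left only batch 10 with samples of 2 groups, so batch and group cannot be told apart.

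Insulin-like growth factors are anabolic signals for cartilage: they promote the making of aggrecan and type II collagen by chondrocytes and help the cells survive. The ligands act through IGF1R, a receptor tyrosine kinase, which phosphorylates the docking proteins IRS1 and IRS2 and through them engages PI3 kinase and AKT. The binding proteins are secreted, hold IGFs with high affinity outside the cell and so set how much ligand reaches the receptor; proteases that cut them set the ligand free.

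The listed members fell into short-lived messages for the intracellular substrates and long-lived messages for most secreted binding proteins. In young female cells of the age table, half-lives were 0.892 h for IRS1, 1.07 h for IRS2, 4.24 h for IGF1R, 12.1 h for IGFBP5, 63.5 h for IGFBP2 and 69.3 h for IGFBP6. IGFBP4, from the sex table, had 17.3 h in young female cells. For comparison, the median over all genes in the young female column of the age table was 3.64 h (interquartile range 1.78 to 8.67 h). IRS1 and IRS2 thus lay at percentiles 3.74 and 7.66 of that column, IGF1R at 55.2 and IGFBP5 at 82.6. IGFBP6 stood at 69.3 h in all 4 columns, and IGFBP2 reached that value in male cells. This is the longest half-life that either table holds, corresponding to a decay rate of 0.01 per h, and 0.823% of genes in that young female column were at it.

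The order of half-lives from IRS1 through IRS2, IGF1R, IGFBP5 and IGFBP2 to IGFBP6 was the same in young and old female cells. In male cells the order differed in that IGFBP4 (17.5 h) came before IGFBP5 (23.0 h), and IGFBP2 and IGFBP6 were both at the ceiling and could not be ordered. For a message that decays exponentially, 4 h of labelling renews 95.5% of IRS1 RNA at its young female half-life in the age table. The corresponding share was 48.0% for IGF1R, 20.4% for IGFBP5, 4.27% for IGFBP2 and 3.92% at the ceiling. Values near either end of this range turn small differences in the labelled share into large differences in half-life, and half-lives of 1 to 24 h were taken as the range that 4 h of labelling can resolve.

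**Figure D1:**
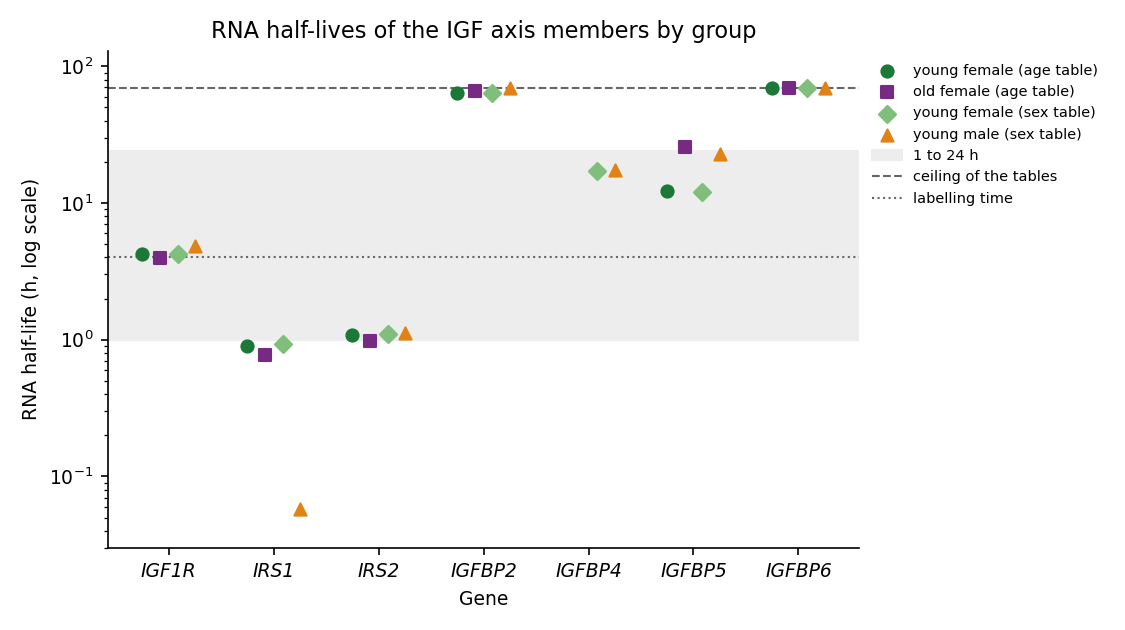
RNA half-life in hours (log scale) of the 7 listed members, with 1 point per group and table, so that young female cells appear as a circle (age table) and a diamond (sex table). The grey band marks 1 to 24 h, the dashed line the ceiling of 69.3 h and the dotted line the labelling time of 4 h. The pairs of young female points nearly coincide, the old female and male points of IGFBP5 sit above its young female points, and the male point of IRS1 sits at 0.0576 h, far below its other points.

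The young female values of each member in both tables come from the same libraries, so their difference shows only how far a value moved when those libraries were fitted with another group; counting and labelling error, which both share, is not in it. Half-lives of the 6 members in both tables differed by at most 3.78% (IRS1). Implied levels of all genes were offset between tables by a nearly constant factor (median 0.955). Synthesis rates had a similar median factor (0.956) but a wider spread, with a 95th percentile deviation of 0.18 log2 units, and ratios between groups were therefore taken within 1 table. That deviation was also 0.18 for half-life but 0.00092 for implied level, so shifts of a gene in half-life and synthesis rate were nearly equal and opposite. Opposed ratios of half-life and synthesis rate are thus not 2 independent results. The implied level is the RNA amount that a synthesis rate and a half-life give together if the amount is constant, computed as their product divided by ln 2, in arbitrary units. Neither synthesis rate nor implied level was stated to be scaled to transcript length, so neither is compared between genes as an abundance. An order of genes by implied level is used for IGFBP4 and IGFBP2 only, as a rough guide to how much signal lay behind an estimate.

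Between old and young female cells, IGFBP5 was the member that stood apart: its synthesis rate was 2.59-fold lower and its half-life 2.11-fold longer in old cells, while its implied level was only 1.23-fold lower. The other 5 members had half-lives within 1.16-fold and synthesis rates within 1.33-fold of their young values. The threshold for counting a gene was a 2-fold difference up or down, an absolute log2 ratio of 1 or more. Half-life was past it for 1 of 6 members, against 3.53% of all genes; synthesis rate for 1 of 6, against 7.52%; and implied level for 0 of 6, against 4.12%. The members' median log2 ratio of old to young was −0.049 for half-life (−0.084 over all genes), −0.077 for synthesis rate (0.080 over all genes) and −0.19 for implied level (0.0048 over all genes). Implied levels of 4 of the 6 members were 1.12-fold to 1.28-fold lower in old cells, that of IRS2 was nearly equal (−0.0026, and 0.065 with the sex table's young female value) and that of IGF1R was higher, whereas 50.7% of all genes were higher.

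Between young male and young female cells, the RNA of the binding protein IGFBP2 was more abundant in male cells, and IGFBP5 again combined a lower synthesis rate with a longer half-life. IRS1 was listed in male cells with a much shorter half-life, a much higher synthesis rate and a nearly equal level. The implied level of IGFBP2 was 2.24-fold higher in male cells. That of IGFBP4 was listed as 4.39-fold higher, but IGFBP4 is in the sex table alone, where genes absent from the age table were mostly higher in male cells, as given with its values. Over all genes, half-lives in male cells were shifted by a median log2 ratio of 0.27 and synthesis rates by −0.28, so values relative to these shifts are given where they matter. Half-life was past the threshold for 1 of 7 members (IRS1), against 7.58% of all genes. For synthesis rate 4 of 7 were past it (IRS1, IGFBP2 and IGFBP4 higher, IGFBP5 lower), against 12.2% of all genes, and for implied level 2 of 7 (IGFBP2 and IGFBP4), against 4.61%. Both shares were higher among genes of low female level, as given with the values of IGFBP2 and IGFBP4. Among the 6 members listed in both tables the counts were 3 for synthesis rate and 1 for implied level. The members' median log2 ratio of male to female was 0.025 for half-life, 0.30 for synthesis rate (−0.28 over all genes) and −0.13 for implied level (0.0051 over all genes). Without IGFBP4 the median for synthesis rate was −0.045. Because both comparisons use the same young female cells, an error in a young female value would enter both, and similar values in both comparisons are given side by side only.

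**Figure D2:**
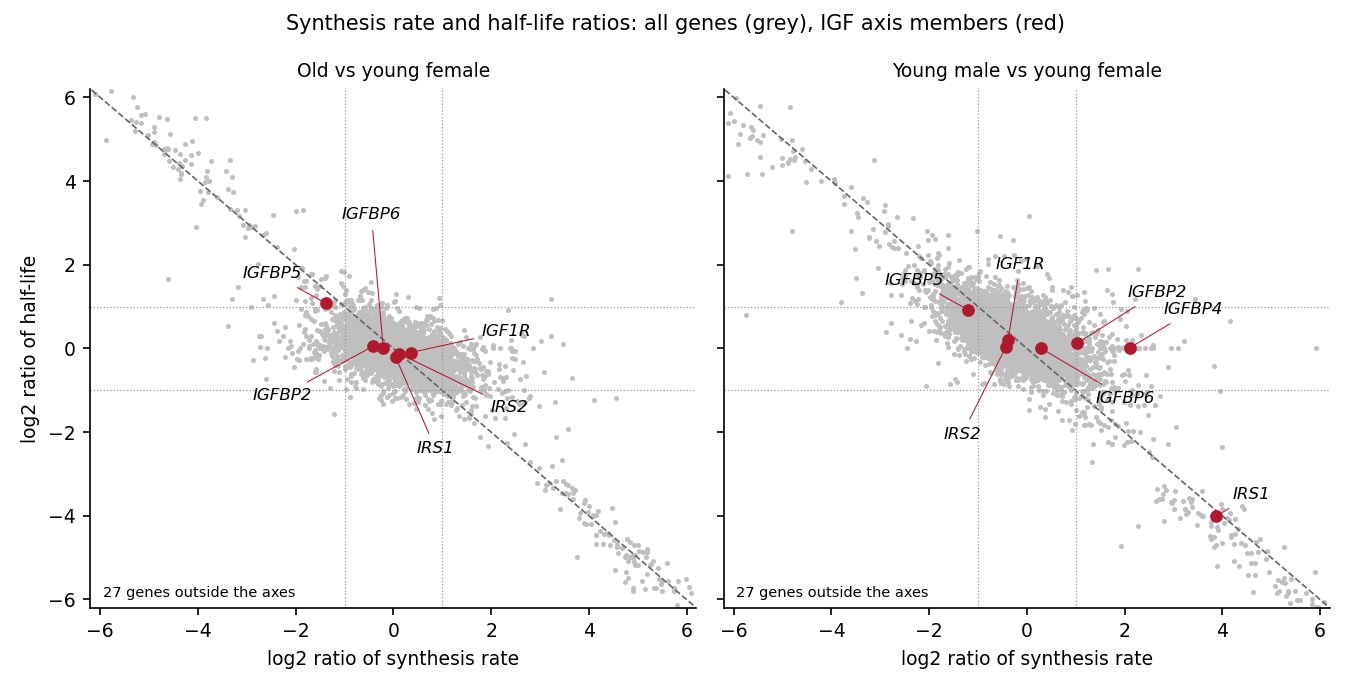
Log2 ratio of half-life (vertical axis) against log2 ratio of synthesis rate (horizontal axis) for all genes (grey) and the listed IGF axis members (red), for old against young female cells (left) and young male against young female cells (right). On the dashed diagonal the implied level is equal in both groups, and dotted lines mark a 2-fold difference. IGFBP5 sits on the upper left near the diagonal in both panels, IGFBP2 and IGFBP4 lie to the right of it in male cells, and IRS1 in male cells lies in the tail of points at the lower right.

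IGF1R, the signalling receptor of the axis, stayed within 1.31-fold in every quantity. In the age table its half-life was 4.24 h in young and 3.96 h in old female cells, and its synthesis rate was 1056 and 1354 arbitrary units. The log2 ratios were −0.099 for half-life and 0.36 for synthesis rate, and the implied level was 1.20-fold higher in old cells. That level ratio ranked above 79.8% of the genes of the table. In the sex table the half-life was 4.24 h in female and 4.88 h in male cells, and the synthesis rate 1010 and 774 arbitrary units. The male half-life was longer by a log2 ratio of 0.20, but shorter by 0.069 once the shift of all genes was subtracted, and the implied level was 1.13-fold lower in male cells. With a half-life close to the labelling time, IGF1R is the member for which the labelled share is most evenly split between new and old RNA.

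IRS2, which couples the receptor to PI3 kinase, had a half-life near 1 h in every group. It was 1.07 h in young and 0.986 h in old female cells of the age table, and 1.11 h in female and 1.13 h in male cells of the sex table. Its synthesis rate was 2151 in young and 2340 arbitrary units in old cells, and its implied level was nearly equal in both (log2 ratio −0.0026). In male cells the synthesis rate was 1476 against 1993 arbitrary units in female cells, and the implied level was 1.33-fold lower. That level ratio was at percentile 16.7 of all genes, and within genes of like half-life its log2 value was −0.057 in place of −0.41.

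IRS1, the other main receptor substrate, had the shortest half-life of the members in every group. In the age table it was 0.892 h in young and 0.768 h in old female cells, with synthesis rates of 2122 and 2199 arbitrary units and an implied level 1.12-fold lower in old cells. In the sex table the half-life was 0.926 h in female and 0.0576 h in male cells, 16.1-fold shorter, and the synthesis rate was 1953 and 28736 arbitrary units, 14.7-fold higher. The implied level differed by 1.09-fold, being lower in male cells. Expressed as RNA renewed during labelling, the male share was 5.01 percentage points above the female one and amounted to virtually all of the message. Within deciles of half-life the male level ratio had the opposite sign (0.22 in place of −0.13 on the log2 scale).

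A male half-life as short as that of IRS1 was shared by other genes that turn over at about 1 h. Of 364 other genes whose young female half-life lay within 10% of that of IRS1 in the sex table, 40 (11.0%) were listed under 0.1 h in male cells, while their median was 0.943 h. Of the same 364 genes, 19 (5.22%) were listed under 0.1 h in young female cells by the age table, although the same female libraries entered both. Among genes of the age table near the half-life of IRS1, 35 of 339 (10.3%) were under 0.1 h in old cells, and 7 of the 336 also in the sex table (2.08%) were under it there in young female cells. Half-lives at least 8-fold shorter in male cells were listed for 117 genes of the sex table (1.04%), IRS1 among them, and 64 of those had an absolute log2 level ratio under 0.5. Of the 96 genes under 0.1 h in young female cells by the age table and listed in both, 62 were at 0.5 h or more in the sex table. Conversely, of the 68 under 0.1 h by the sex table, the one that holds the male IRS1 value, 32 were at 0.5 h or more in the age table and 34 were under 0.1 h there too. The IRS1 values in male cells have no second estimate, and the part that estimation plays in them was not tested.

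**Figure D3:**
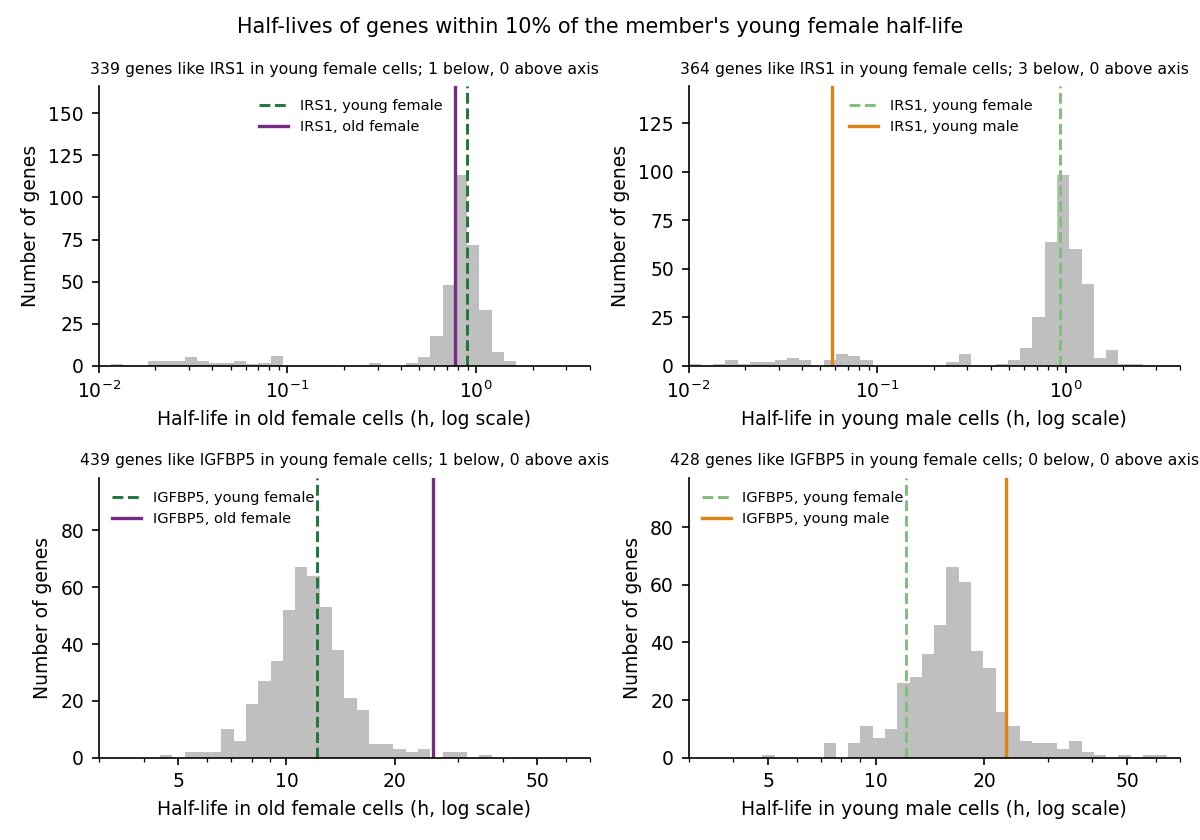
Histograms of the half-life (hours, log scale) in old female cells (left) or young male cells (right) of genes whose young female half-life lay within 10% of that of IRS1 (top) or IGFBP5 (bottom). The dashed line marks the member in young female cells and the solid line the member in the other group. The male IRS1 line falls in a small separate group of genes under 0.1 h, and the old female IGFBP5 line falls at the right edge of its histogram.

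IGFBP5, a binding protein that also associates with the extracellular matrix, had the largest half-life ratio of the members after IRS1. Its half-life was 12.1 h in young female cells of both tables, 25.6 h in old female cells and 23.0 h in male cells. The share of its RNA renewed during labelling was 20.4% in young female, 10.3% in old female and 11.4% in male cells. Its synthesis rate was 1089 in young and 420 arbitrary units in old female cells, and 1042 in female and 453 arbitrary units in male cells.

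In the age comparison the half-life of IGFBP5 had a log2 ratio of 1.08 and its synthesis rate one of −1.38. A ratio of half-lives at least as high was listed for 147 of the 11056 genes, IGFBP5 included, and a ratio of synthesis rates at least as low for 200. Among 439 other genes with a young female half-life within 10% of its own, the median old half-life was 11.4 h, and 5 genes were at or above that of IGFBP5. Centring on all genes or within deciles of half-life left the half-life ratio at 1.16 or 1.15. The old value of 25.6 h is just outside the range of 1 to 24 h.

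In the sex comparison the log2 ratio of IGFBP5 was 0.92 for half-life, under the threshold, and −1.20 for synthesis rate, past it. Once the shift of all genes was subtracted, the values were 0.65 and −0.92, so that synthesis rate was then under the threshold as well. Within deciles of half-life they were 0.42 and −1.15. Those deciles were ordered by old female half-life, 25.6 h for IGFBP5, and its bin was the one that also held IGFBP2 and IGFBP6. Of 428 other genes with a like young female half-life, 44 were at or above the male half-life of IGFBP5, and their median was 16.6 h. The median log2 ratios of the 428 genes were 0.44 for half-life and −0.18 for synthesis rate. The implied level of IGFBP5 was 1.23-fold lower in old and 1.21-fold lower in male cells. Within deciles of half-life, ordered by male cells, its log2 ratio was −0.29 in old cells, close to the listed −0.30. In male cells it was −0.70 in place of −0.28, within the bin shared with IGFBP2 and IGFBP6. A synthesis rate past the threshold downward, with a half-life longer by at least 0.5 and a level within 0.5 (all log2), was listed for 106 genes (0.959%) in the age table and 417 (3.71%) in the sex table, IGFBP5 being the only listed member of this kind in each.

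IGFBP4, a binding protein cut by the protease pappalysin, had the largest listed difference in implied level of the 7 members. It was listed only in the sex table, with a half-life of 17.3 h in female and 17.5 h in male cells and a synthesis rate of 2.77 and 12.0 arbitrary units. The level ratio was nearly equal to that of synthesis rate, with log2 ratios of 2.11 for synthesis rate, 0.018 for half-life and 2.13 for implied level. Only 51 of 11249 genes, IGFBP4 included, had a level ratio as high. After subtracting the shift of all genes, its half-life was shorter by 0.26 and its synthesis rate higher by 2.39, both on the log2 scale. In bulk RNA of this kind, fewer cells that make a message and less message per cell cannot be told apart.

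As a rough guide to signal, not corrected for transcript length, the implied level of IGFBP4 in young female cells stood at percentile 0.142 of its table. When genes were ranked by that level into 10 equal bins, the lowest bin held 1125 genes, of which 15.4% were past the threshold for implied level in the sex comparison, compared with 4.61% of all genes. For synthesis rate the share in that bin was 34.2%, compared with 12.2% of all genes. A level ratio as high as that of IGFBP4 was found for 31 of the 1125 genes, itself included. No second young female estimate exists for it, since the age table, which used the same young female libraries, does not list it. Of the 275 genes listed only in the sex table, 69.5% had a higher level in male cells and 22.9% were past the threshold upward, compared with 50.0% and 2.51% of the 10974 genes in both tables. The filter that admitted genes is not given in the sources used here. If a gene had to reach a minimum in 1 group of its table, a gene this low in young female cells would have entered through its male level; whether this holds for IGFBP4 was not tested, and its male ratio is given as a description.

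IGFBP2, another secreted binding protein, was higher in male cells and lower in old cells, with half-lives at the upper end of the scale throughout. Its half-life was 63.5 h in young and 66.0 h in old female cells of the age table, and 63.4 h in female cells and 69.3 h, the ceiling, in male cells of the sex table. Its synthesis rate was 4.69 in young and 3.53 arbitrary units in old female cells, giving a level 1.28-fold lower in old cells. In the sex table the synthesis rate was 4.48 in female and 9.18 arbitrary units in male cells, a log2 ratio of 1.04, and the implied level had a log2 ratio of 1.16. The threshold was met narrowly: with the young female value of the age table the log2 ratio of synthesis rate was 0.97, and within deciles of half-life that of implied level was 0.74. Of the genes in the same bin by female level, 7.73% were past the threshold for implied level.

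IGFBP6, a binding protein with a preference for IGF2, had a half-life at the ceiling in every column, so that a difference in half-life was not detectable and its synthesis ratio equals its level ratio. The synthesis rate was 45.5 in young and 39.5 arbitrary units in old female cells, 1.15-fold lower in old cells. It was 43.4 in female and 53.3 arbitrary units in male cells, 1.23-fold higher in male cells. Over the 88 genes at the ceiling in both columns of the sex table, the median log2 level ratio was 0.55 and 70 were higher in male cells, compared with 0.30 for IGFBP6. Within deciles of half-life its male level ratio was −0.13, the opposite sign.

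**Figure D4:**
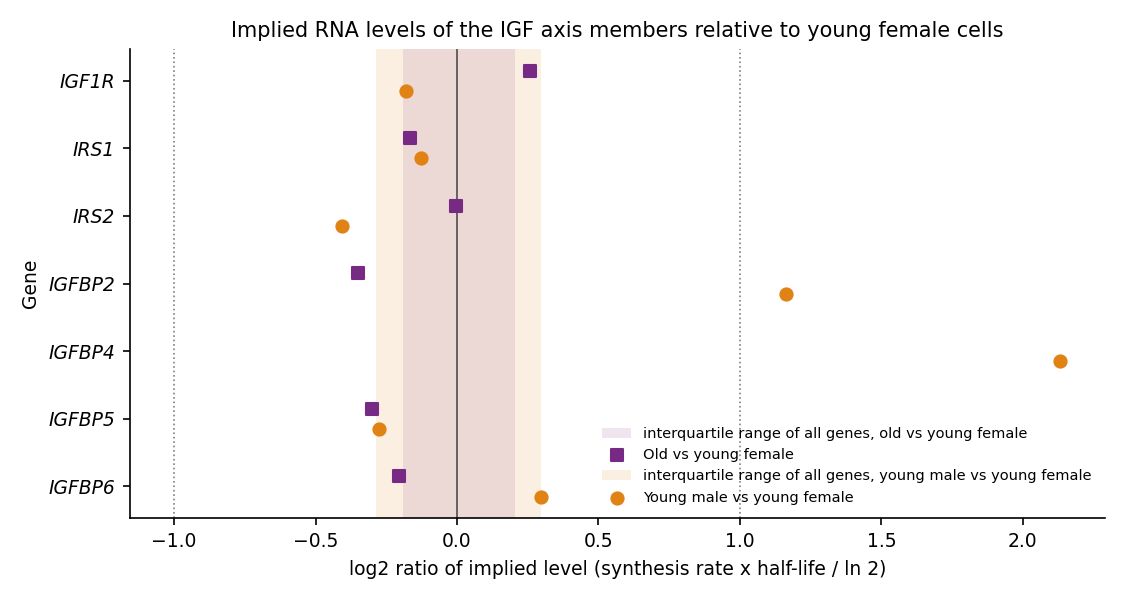
Log2 ratio of implied level of each listed member in old against young female cells (squares) and in young male against young female cells (circles). Shaded bands span the interquartile range of all genes in each comparison, the solid line marks equal levels and dotted lines a 2-fold difference. Only the male points of IGFBP2 (1.16) and IGFBP4 (2.13) are beyond the dotted lines, and the male point of IGFBP4 is that of a gene listed in the sex table alone. In old cells IGFBP2 (−0.35), IGFBP5 (−0.30) and IGFBP6 (−0.21) lie left of the band and IGF1R (0.26) right of it; in male cells IRS2 (−0.41) lies left of it and IGFBP5 (−0.28) within it near the edge.

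The binding proteins thus differed among themselves in how their level related to kinetics. For IGFBP4 in male cells the listed half-life was equal to within 1.28% (log2 ratio −0.26 after subtraction of the shift of all genes) and the listed difference lay in synthesis rate, with the limit that this gene is in the sex table alone. For IGFBP5 in both comparisons opposed differences in synthesis rate and half-life left levels at most 1.23-fold apart as listed. Within deciles of half-life, the level of IGFBP5 in male cells had a log2 ratio of −0.70 in place of −0.28, so the near-equal level depends on the setting. That bin was set by the old female half-life of 25.6 h and also held IGFBP2 and IGFBP6, so it does not compare IGFBP5 with genes near its young female half-life. IGFBP2 and IGFBP5 are neighbouring protein-coding genes in the RefSeq annotation of the TB-T2T horse assembly, where all 10 members were matched by symbol. Their synthesis ratios in male cells had opposite signs (1.04 and −1.20), and their half-lives in young female cells were 63.4 h and 12.1 h.

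The rest of the pathway was read from lists by role, the members left out. Of 64 further genes, 52 were listed in the age table and 53 in the sex table. The median log2 level ratio over these genes was 0.039 by age and −0.14 by sex, with 3 past the threshold upward and 3 downward by age (4.12% of all genes in either direction) and 2 upward and 0 downward by sex (4.61% of all genes). For synthesis rate 4 were past it upward and 6 downward in old cells (7.52% of all genes in either direction), and 2 upward and 7 downward in male cells (12.2% of all genes). After subtracting the shift of all genes, an alternative added after the values were seen, 3 were past it upward and 1 (IGF2BP2) downward in male cells. The ligands IGF2 and INS were listed in neither table. INSR, the insulin receptor, which can pair with IGF1R, had a half-life of 2.70 h in young and 2.90 h in old female cells and of 2.72 h in female and 3.51 h in male cells, with no quantity past the threshold.

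Among the 8 listed adaptors, GAB1, a docking protein like the IRS proteins, had a synthesis rate with a log2 ratio of 1.16 in old cells. In male cells GAB1 was listed at 0.0180 h against 1.14 h in female cells, with a level ratio of −0.14, the same form as IRS1. GRB10, an adaptor that restrains insulin and IGF receptors, had a lower synthesis rate in male cells (−1.22, implied level −0.84), and SOS1, which activates RAS, one of −1.07; after subtraction of the shift of all genes both were under the threshold. In the PI3 kinase arm all 22 genes were listed in both tables. PIK3R1, the regulatory subunit through which PI3 kinase binds IRS proteins, had a 2.17-fold higher implied level in old cells, with a half-life of 0.731 h against 0.882 h in young cells. In male cells 4 of the 22 genes had synthesis rates past the threshold downward and 0 upward, against 12.2% of all genes in either direction. They were the catalytic subunits PIK3CA (−1.14) and PIK3CB (−1.13), the kinase PDPK1 (−1.02), which activates AKT, and RICTOR (−1.02), a subunit of an mTOR complex. After subtraction of the shift of all genes these 4 were under the threshold. For implied level in male cells 0 of the 22 were past it as listed, against 4.61% of all genes in either direction. After the subtraction 1 was past it, PIK3R3, another regulatory subunit, whose listed log2 ratio of −0.997 lay at the threshold.

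Of 9 genes on the list of binding protein proteases, related proteases and their inhibitors that were in the age table, 2 were past the threshold upward in implied level and 3 downward, against 4.12% of all genes in either direction. STC2, an inhibitor of pappalysin, was 2.09-fold higher in old cells and C1S, a complement protease that can cut IGFBP5, 2.25-fold higher. STC1, a second inhibitor of pappalysin, was 2.94-fold lower, HTRA3, a serine protease, 3.80-fold lower, and PRSS23 2.30-fold lower. PAPPA, pappalysin itself, had implied levels 1.12-fold higher in old and 1.18-fold lower in male cells. In male cells HTRA1, a secreted protease with an IGFBP-like domain, was 2.39-fold higher in level, and ADAM12, a protease of IGFBP3 and IGFBP5, 3.87-fold higher, with a half-life of 59.8 h against 12.8 h. ADAM12 was listed only in the sex table, so its listing may rest on its male level as for IGFBP4, and among the 52 pathway genes listed by both HTRA1 was the only 1 past the threshold for implied level in male cells. IGFBP7, a low-affinity relative of the binding proteins, was 1.35-fold higher in old and 1.77-fold higher in male cells.

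The growth hormone arm, which drives IGF1 production in many tissues, held the widest gaps between the pairs of young female estimates. SOCS1, a feedback inhibitor of cytokine receptors, was listed at 0.0182 h in young female cells by the age table and at 0.902 h by the sex table, from the same libraries. CISH, another such inhibitor, was at 0.0261 h and 1.21 h. These were the only 2 of 58 pathway genes in both tables, members included, whose young female half-lives differed by at least 2-fold. The half-life ratios of SOCS1 (1.16 in old, −4.45 in male cells) and CISH (4.47 in old cells) rest on those values. SOCS2, of the same family, had a lower synthesis rate in old cells (−1.02). For GHR, the growth hormone receptor, the log2 ratio of synthesis rate was 0.37 by age and −0.36 by sex. IGF2BP2, which binds IGF2 message, had a synthesis ratio of −1.34 by age and −3.03 by sex and a half-life of 62.6 h in male against 11.4 h in female cells. Its implied level was under the threshold in both comparisons (−0.89 by age and −0.57 by sex). The male half-life of IGF2BP2 lies outside the range of 1 to 24 h.

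**Figure D5:**
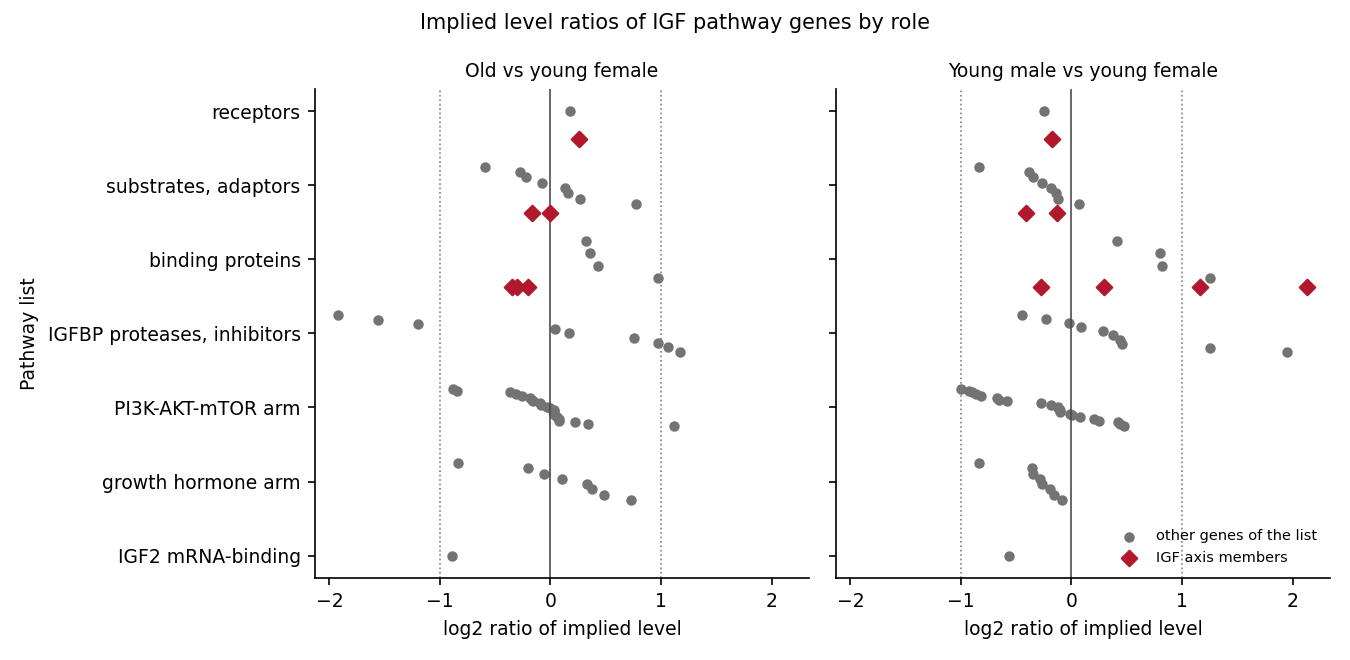
Log2 ratio of implied level for the genes of each pathway list (grey circles) and the listed members (red diamonds, drawn under their own role), for old against young female cells (left) and young male against young female cells (right). Dotted lines mark a 2-fold difference. In old cells the list of proteases and inhibitors has the widest spread, from −1.92 for HTRA3 to 1.17 for C1S. In male cells IGFBP4 (2.13) and ADAM12 (1.95), both listed in the sex table alone, are farthest from 0.

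The chondrocyte label was matched by the listed markers: 11 of 12 chondrocyte markers, including COL2A1, ACAN and SOX9, were in both tables. Markers of cells that could accompany them were mostly unlisted, with 1 of 9 for blood-derived cells (CD14) and 1 of 6 for endothelial cells (VWF) in each table. Genes of fibroblasts and dedifferentiated chondrocytes, such as COL1A1, were listed, 9 of 10 in the age table and 10 of 10 in the sex table. Their summed implied level was 311048 arbitrary units in female and 768701 in male cells, 2.47-fold higher, with 10 of 10 higher and 8 past the threshold upward. The chondrocyte markers summed to 1789603 and 4507160 units, 2.52-fold higher, with 10 of 11 higher and 7 past the threshold upward. Over all genes 50.5% were higher and 4.61% past the threshold in either direction. Without POSTN, listed only in the sex table, 7 of 9 fibroblast genes were past it and the sum was again 2.47-fold higher. Of 6 bone cell markers, 3 were listed (IBSP, ALPL and RUNX2), all higher in male cells and together 5.21-fold higher. Of 6 adipocyte and muscle markers, 1 was listed in the age table (DES, 1.09-fold lower in old cells) and 3 in the sex table (MYH11, ACTA2 and DES), together 1.81-fold higher in male cells. Within that sum ACTA2, smooth muscle actin, was 28.3-fold higher and MYH11 1.70-fold lower, both listed only in the sex table; DES, the marker listed in both, was 1.33-fold lower. The summed differences of the fibroblast, chondrocyte and bone lists went in the same direction as those of IGFBP2 and IGFBP4, and their part in those results was not tested. In the age comparison the fibroblast list summed to 325698 in young and 211221 units in old cells, 1.54-fold lower, with 8 of 9 lower. In implied level 4 of the 9 were past the threshold downward, against 4.12% of all genes in either direction, and in synthesis rate 5 of the 9, against 7.52%. The chondrocyte list was 1.09-fold lower in sum, but its genes went both ways, with 5 of 11 higher in implied level. In that quantity 1 of the 11 was past the threshold upward (CILP, 2.74-fold higher) and 1 downward (HAPLN1, 2.01-fold lower). In synthesis rate 0 of the 11 were past it upward and 2 downward. Of the 3 listed bone markers 2 were higher in old cells, and their sum was 1.19-fold higher. The fibroblast list thus differed in the same direction as the levels of IGFBP2 and IGFBP5 and the synthesis rate of IGFBP5 in old cells, and its part in those results was not tested. In male cells, where that list was 2.47-fold higher, IGFBP2 was higher in level (log2 ratio 1.16). IGFBP5 was lower there in level (−0.28) and in synthesis rate (−1.20).

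Genes whose pattern lay closest to a member were sought by the Euclidean distance over 4 log2 ratios, those of half-life and synthesis rate in both comparisons, which cover only 3 groups. For IGFBP2, whose level differed most between old and young cells by absolute log2 ratio (−0.35), the nearest were the fibroblast protease FAP (distance 0.22), the secreted glycoprotein ANGPTL2 (0.26) and the growth factor PTN (0.27). IGFBP4, which differed most in male cells, lacks values by age and could not be placed. For IGFBP5, chosen after its values were seen, the nearest were PTS (0.25), an enzyme of tetrahydrobiopterin synthesis, the kinase TSSK4 (0.27) and the cell-surface proteoglycan SDC1 (0.36). Each had a longer half-life and a lower synthesis rate in old and in male cells, which follows from choosing genes by these ratios.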

How the data were processed

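RNA of 13 chondrocyte cultures was alkylated with iodoacetamide for 15 min, and poly(A)-selected, strand-specific libraries were sequenced, per the labels' protocols. The submitters' processing notes name cutadapt 4.5, STAR 2.5.3 and the build EquCab3.0, without roles. The kinetic model, annotation, gene filter and the combining of replicates are not given in the sources used here. The authors deposited 2 tables of synthesis rates and half-lives, 1 value per gene and group, per the file headers. The column headed "Young" was read as young female because the labels assign only those young samples to it. Hours were inferred from the labelling time and from the ceiling of 69.3, which is ln 2 divided by 0.01. Columns of values per sample numbered 0, so no test was run. Log2 ratios were computed within a table with pandas 2.3.3 and numpy 2.4.6, without pseudocount or filter, and the calculation was checked on simulated ratios. Implied level assumes constant RNA amounts. Alternatives were a threshold of 0.5, half-lives of 1 to 24 h, centring on all genes or within 10 half-life deciles (ordered by the group outside the ratio), and the other table's young female values. All members were named; other pathway genes were named when past the threshold or as the main gene of their role, with CRIM1, KAZALD1 and the remainder only counted. The members, lists and alternatives were chosen with earlier results of these data known.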

Additional observations from a re-analysis of the deposited data

How the results depend on the processing

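When both half-lives had to lie within 1 to 24 h, 1 member was left by age and 4 by sex. By age the counts were then 0 for half-life and 0 for synthesis rate, and by sex they were 0 (half-life), 2 (synthesis rate) and 1 (level). At a threshold of 0.5 the count for half-life by sex was 2. With the age table's young female values 2 were past it by sex for synthesis rate and 1 for implied level, and within half-life deciles 0 for implied level. IGFBP4 cannot enter either alternative, and IGFBP2 fell under the threshold for synthesis rate in the former and for level in the latter. After centring, synthesis rate by sex had 3 of 7 in place of 4, IGFBP5 being under the threshold. With only the 6 members listed in both tables, an alternative added after the values were seen, 1 was past it by sex for implied level. No count by age moved under centring or under the other table's values.

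Medians over so few members turned sign in 10 of 27 alternatives. For implied level by age, −0.19 became 0.26 with half-lives of 1 to 24 h (IGF1R alone), −0.19 after centring, −0.24 within deciles and −0.12 with the sex table's values. For synthesis rate by age, −0.077 became 0.36 with 1 to 24 h and 0.016 with the sex table's values. For half-life by age, −0.049 became 0.035 after centring and 0.0076 within deciles. For synthesis rate by sex, 0.30 became −0.41 with 1 to 24 h, −0.11 with the age table's values, 0.57 after centring and −0.045 without IGFBP4. For half-life by sex, 0.025 became −0.25 after centring and −0.25 within deciles. For implied level by sex, −0.13 became −0.23 with 1 to 24 h, −0.13 after centring, −0.094 within deciles, −0.22 with the age table's values and −0.15 without IGFBP4. By construction, the 1 to 24 h range changes which members enter, centring subtracts the shift of all genes, and the other table's values add the offset between tables and, by sex, leave out IGFBP4. The limit for a moved median was the 95th percentile of the difference between young female estimates, over genes of 1 to 24 h. It was 0.15 log2 units for half-life and synthesis rate and 0.00083 for implied level. Both half-lives of a member lay in that range for 1 member by age and 4 by sex. Of single members, IGFBP2 (synthesis rate and level) and IGFBP5 (synthesis rate) crossed the threshold in male cells, as given with their values.

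No paired analysis was possible because the tables carry no value per sample, and for the same reason leaving out a sample was not run. Depth is unknown, so no limit from counting is given. The range of 1 to 24 h leaves out IRS1, IGFBP2 and IGFBP6 in both comparisons.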
